A study of Mus musculus with 244 samples.

Results

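The genes described here encode the eukaryotic initiation factors (eIF), which bring a ribosome to the start codon of an mRNA, and the elongation factors (eEF), which carry it along the coding sequence. Every row of the deposited count table whose symbol begins with Eif or Eef followed by a digit was taken, which gave 66 genes of 25122. The rule therefore also took enzymes that modify these factors, eIF2 kinases and eIF4E-binding proteins, and no measured value entered the choice. The cells were oocytes and follicle somatic cells taken on postnatal day 6 from CD-1 mice, which are outbred. Follicles were freed from pooled ovaries and staged by eye, and 1 SMART-Seq2 library was made from each cell, a method that copies polyadenylated RNA over its full length and adds no molecular identifiers. There were 59 oocytes, of which 13 came from primordial, 19 from transitioning, 20 from primary and 7 from secondary follicles. Of the somatic cells, 40, 47, 56 and 42 came from these stages in that order. A transitioning follicle has both flat and cuboidal somatic cells. No genotype, drug or other treatment differed between the groups.

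In initiation, eIF4E binds the mRNA cap, the eIF4A helicase opens the leader, and eIF3, a large complex of many subunits, holds the small ribosomal subunit while eIF2 delivers the initiator tRNA and eIF1 and eIF1A check the start codon. The exchange factor eIF2B recharges eIF2, and kinases that phosphorylate eIF2 slow the whole process. A growing oocyte stores much of its mRNA for use after growth, so the control of initiation, including forms of eIF4E and of its binding proteins made in germ cells, is a long-standing subject in this cell.

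Many mRNAs of the translation apparatus carry a 5′ terminal oligopyrimidine (TOP) tract, a C at the first base followed by a run of pyrimidines, through which their translation follows growth signals. The RefSeq promoter table (GRCm38.p6) held a start for 50 of the 66 genes, or 75.8%, and for 7 of the 11 genes on a list of TOP mRNAs. The letters at the start are shown for the most abundant genes and for those of the TOP list on which the comparisons below turn, 15 bases before and 15 from the listed start, with the C and its pyrimidine run in capitals where at least 4 pyrimidines follow it.
Eif3f, chr7:108934400-108934429, plus strand: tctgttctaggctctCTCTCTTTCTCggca
Eif2s3x, chrX:94212637-94212666, minus strand: ctgccgagcattttcCTTTTCTCTCCgagc
Eef1a1, chr9:78481710-78481739, minus strand: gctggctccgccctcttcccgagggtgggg
Eef2, chr10:81176616-81176645, plus strand: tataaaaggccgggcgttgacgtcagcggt
Eif3a, chr19:60790679-60790708, minus strand: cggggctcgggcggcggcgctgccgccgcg
Such a run stood at the listed start of Eif3f and Eif2s3x, 2 of the 7, at none of the other 43 genes with a start, and at 823 of all 32851 starts in the table (2.51%). For Eef1a1, Eef2 and Eif3a no such run was at this listed base, which says only that these letters are not there.

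The 250 bases before the start are shown for Eif5a2, which was called higher in oocytes on 3 of 5 plates, and for Eif3a, which was called lower on all 5, with matches to CANNTG, the letters bound by basic helix-loop-helix factors, in capitals. This motif reads the same on both strands.
Eif5a2, chr3:28781027-28781276, plus strand: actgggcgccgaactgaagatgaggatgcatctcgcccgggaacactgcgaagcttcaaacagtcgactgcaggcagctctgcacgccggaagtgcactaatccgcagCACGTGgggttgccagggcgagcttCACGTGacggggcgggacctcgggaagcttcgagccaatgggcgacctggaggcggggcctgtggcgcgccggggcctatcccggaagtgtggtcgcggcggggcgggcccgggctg
Eif3a, chr19:60790694-60790943, minus strand: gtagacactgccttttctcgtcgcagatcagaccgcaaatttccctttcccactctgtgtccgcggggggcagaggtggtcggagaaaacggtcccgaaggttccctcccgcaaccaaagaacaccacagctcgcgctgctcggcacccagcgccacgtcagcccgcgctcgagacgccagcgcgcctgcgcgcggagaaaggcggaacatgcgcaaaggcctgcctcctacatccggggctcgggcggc
Eif5a2 had 2 matches and Eif3a had 0, while 66.2% of all starts in the table have at least 1 in the same window. Both windows are rich in G and C, at 68.4% for Eif5a2 and 65.6% for Eif3a against a median of 52.4% over all starts.

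On any library plate a gene either had values in each cell or in no cell, and the eIF and eEF genes were unevenly listed. Of the 66 genes, 51 (77.3%) had values on 1 of the 6 plates only, against 29.7% of all genes, and 8 (12.1%) had values on every plate, against 52.8%. Among genes whose highest plate mean was at least 100 counts per 1000000 (CPM), the shares on 1 plate were 84.9% of the factors and 61.1% of all genes. Plate 1 listed 39 of the genes and plates 2 to 6 listed 14, 17, 14, 19 and 17. The genes with values on every plate were Eif1ad, Eif3a, Eif3j2, Eif4e3, Eif4ebp3, Eif5a2, Eef1a2 and Eif2s3y. Paralogues therefore often sat on different plates, as Eif4e on plate 6 and Eif4e1b on plate 5, Eif1a on plate 2 and Eif1ax on plate 1, and Eif5a on plate 3 beside Eif5a2 on all. Eif4e and Eif4e1b, and likewise Eif1a and Eif1ax, could not be compared in the same cells. Eif5a and Eif5a2 shared only the somatic cells of plate 3.

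**Figure D1:**
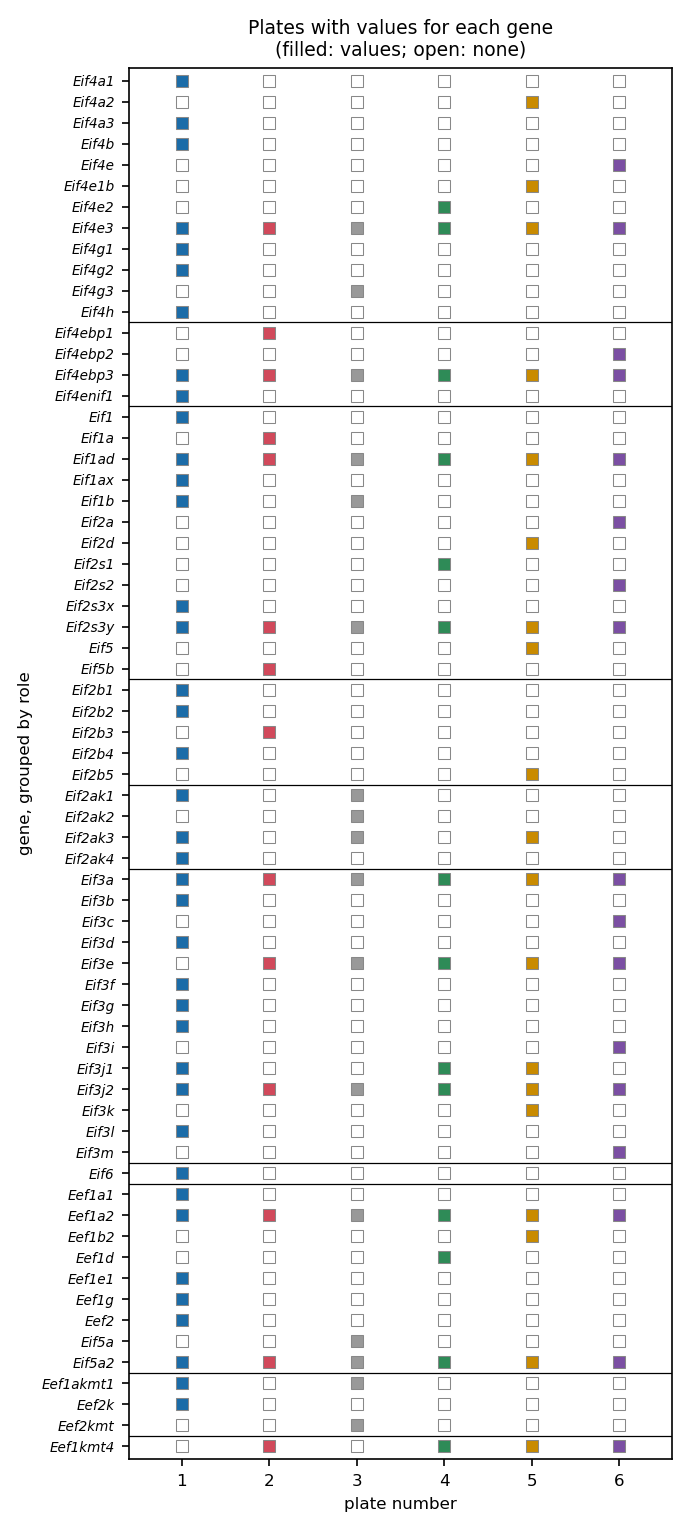
Plates on which each of the 66 initiation and elongation factor genes has values. Rows are genes grouped by role, columns are the 6 plate numbers, and a filled cell marks a gene with values for the cells of that plate. Of the genes, 51 are filled on 1 plate only and 8 on all 6.

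Counts of the cells of each group on a plate were summed and scaled to CPM. No animal is named for any cell, so a group on a plate was taken as 1 sample and no test between groups was made. Bracketed ranges are 95% counting intervals, which cover neither PCR copies nor differences between animals. A gene was called higher or lower at a log2 ratio of 1 or more in size, where the mean CPM of both groups was at least 10. Fewer copies per cell and a smaller share of a cell's RNA cannot be told apart in these values. The total count had a median of 96023 in oocytes (5440 to 801258) and of 72279 in somatic cells (5150 to 409310). The median share of rRNA reads was 10.1% in oocytes and 24.3% in somatic cells, and that of duplicate reads 16.4% and 29.8%. The oocyte and somatic markers were the study's own lists, by which its authors also removed cells with a high score for the other type. Low shares of the other type's markers were thus partly set beforehand and are no check of the labels. Each plate listed 6 to 10 of 19 oocyte markers and 12 to 19 of 21 somatic markers. By plate, the listed oocyte markers took 0.463% to 6.16% of the counts of oocytes and 0.00169% to 0.244% of those of somatic cells. The listed somatic markers took 0.00652% to 0.0232% and 1.13% to 3.71%. Stroma markers reached 6.04% of the counts of 1 somatic cell on plate 2.

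Stage and plate were unevenly crossed. Plate 1 held 13 oocytes (5 primordial, 1 transitioning and 7 primary) and 37 somatic cells (19 primordial, 8 transitioning, 5 primary and 5 secondary). Plate 2 held 8 oocytes, 7 of them primordial, and 32 somatic cells, all primary, so stage and cell type cannot be told apart there. Plate 3 held 22 somatic cells and no oocyte. Plate 4 held 15 oocytes and 16 somatic cells, all transitioning. Plate 5 held 10 oocytes (1 primordial, 4 primary and 5 secondary) and 66 somatic cells of the same stages. On plate 6 were 13 oocytes, namely 8 primary, 3 transitioning and 2 secondary ones, beside 12 somatic cells, of which 11 were secondary.

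A set of 4 oocytes stood apart from the others. On plate 1, primordial oocyte 1, transitioning oocyte 1 and primary oocyte 1 gave 1.81%, 1.44% and 1.68% of their counts to the eIF and eEF genes, against 3.48% to 5.22% in the other 10 oocytes of the plate. They were also the 3 that shared a plate code with the somatic cells, and their oocyte markers took 0.446% to 0.791% of counts against 0.888% to 1.5%. Primary oocyte 1 alone held 801258 counts, 67.8% of the counts of the primary oocytes of plate 1. On plate 5, primordial oocyte 13 gave 1.22% to these genes against 0.334% to 0.681% in the other 9, and its somatic markers took 0.0797% against 0% to 0.0183%. The summed shares and the counts of calls on plates 1 and 5 are given with and without these cells. Without the 3 of plate 1, no oocyte of that plate shares a plate code with its somatic cells. Cell type and plate code then cannot be told apart there. Of the oocytes, 1 of 8 on plate 2 and 5 of 15 on plate 4 shared a plate code with the somatic cells, and all did on plates 5 and 6.

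Summed over all of the genes listed on a plate, the factors took a smaller share of counts in oocytes than in somatic cells of plates 2 and 6, whichever oocyte was left out. On plates 1, 4 and 5 the direction turned when 1 oocyte was left out. The share was 3.43% in oocytes and 3.64% in somatic cells on plate 1, 0.455% and 0.599% on plate 2, 0.490% and 0.534% on plate 4, 0.718% and 0.725% on plate 5, and 0.426% and 0.746% on plate 6. Without the 3 oocytes that stood apart, that of the oocytes of plate 1 was 4.88%, above the somatic cells, and the median over single cells was 4.4% in oocytes and 3.28% in somatic cells with all of them. Without primordial oocyte 13, that of the oocytes of plate 5 was 0.600%. With each single oocyte left out in turn, the oocyte share reached 3.96% at most on plate 1, 0.541% on plate 4 and 0.737% on plate 5, all above the somatic cells, and 0.513% on plate 2 and 0.438% on plate 6. Gene by gene, 10 were higher and 5 lower in oocytes of 36 compared on plate 1, where 25.9% of all genes were higher and 37.9% lower. On plate 2, 2 were higher and 3 lower of 11, against 21.5% and 59.1% of all genes. On plate 4, 4 were higher and 3 lower of 11, against 23.1% and 53.7%. On plate 5, 3 were higher and 5 lower of 16, against 23.3% and 48%. On plate 6, 4 were higher and 6 lower of 14, against 24.1% and 51.7%. In either direction, 15 of 36, 5 of 11, 7 of 11, 8 of 16 and 10 of 14 factor genes were called on these plates, beside 63.8%, 80.6%, 76.8%, 71.3% and 75.8% of all genes. The median log2 ratio of the factors was 0.35, 0.13, 0.12, 0.17 and −0.61 on plates 1, 2, 4, 5 and 6, and that of all genes −0.33, −2.0, −1.31, −0.84 and −1.15. The factors thus lay above the median gene on each of these plates, whose all-gene medians were below 0. The split of higher and lower calls moved with the scaling. With TMM factors it was 14 and 5 on plate 1, 6 and 3 on plate 2, 5 and 1 on plate 4, 5 and 5 on plate 5, and 5 and 4 on plate 6. Median-of-ratios factors gave 16 and 4, 6 and 3, 6 and 0, 5 and 3, and 5 and 4 on those plates. With totals over the genes listed on every plate it was 6 and 8 on plate 1 and 1 and 3 on plate 2, and with totals without mitochondrial, ribosomal and clone genes 4 and 3 on plate 2 and 4 and 2 on plate 4. The mean CPM of single cells gave 15 and 3 on plate 1 and 3 and 3 on plate 2. These scalings moved the median of all genes by up to 1.37 (log2, median-of-ratios factors on plate 2).

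Without the 3 oocytes that stood apart, 15 factor genes were higher and 4 lower in oocytes of plate 1, in place of 10 and 5, against 28.8% and 35.6% of all genes. The oocytes left on plate 1 share no plate code with its somatic cells, so these values cannot tell cell type from plate code. Of the calls, 3 were lost and 7 gained. The calls lost were those of Eif4enif1, Eef2k and Eef1g, at log2 ratios of 0.96, 0.61 and −0.59. Those gained were all higher in oocytes: Eef2 at 1.48, Eef1e1 at 1.10, Eif1ax at 1.18, Eif2b4 at 1.10, and Eif2ak1, Eif3g and Eif3j2, named after their values were seen, at 1.34, 1.37 and 1.20. Without primordial oocyte 13, 2 were higher and 6 lower on plate 5, in place of 3 and 5, against 20.8% and 53.8% of all genes. The call of Eif1ad was lost, and Eif2b5, an eIF2B subunit named after its values were seen, was lower at −1.37, in place of −0.02. The median of the factors was then 0.62 on plate 1 and −0.50 on plate 5, and that of all genes −0.14 and −1.32.

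**Figure D2:**
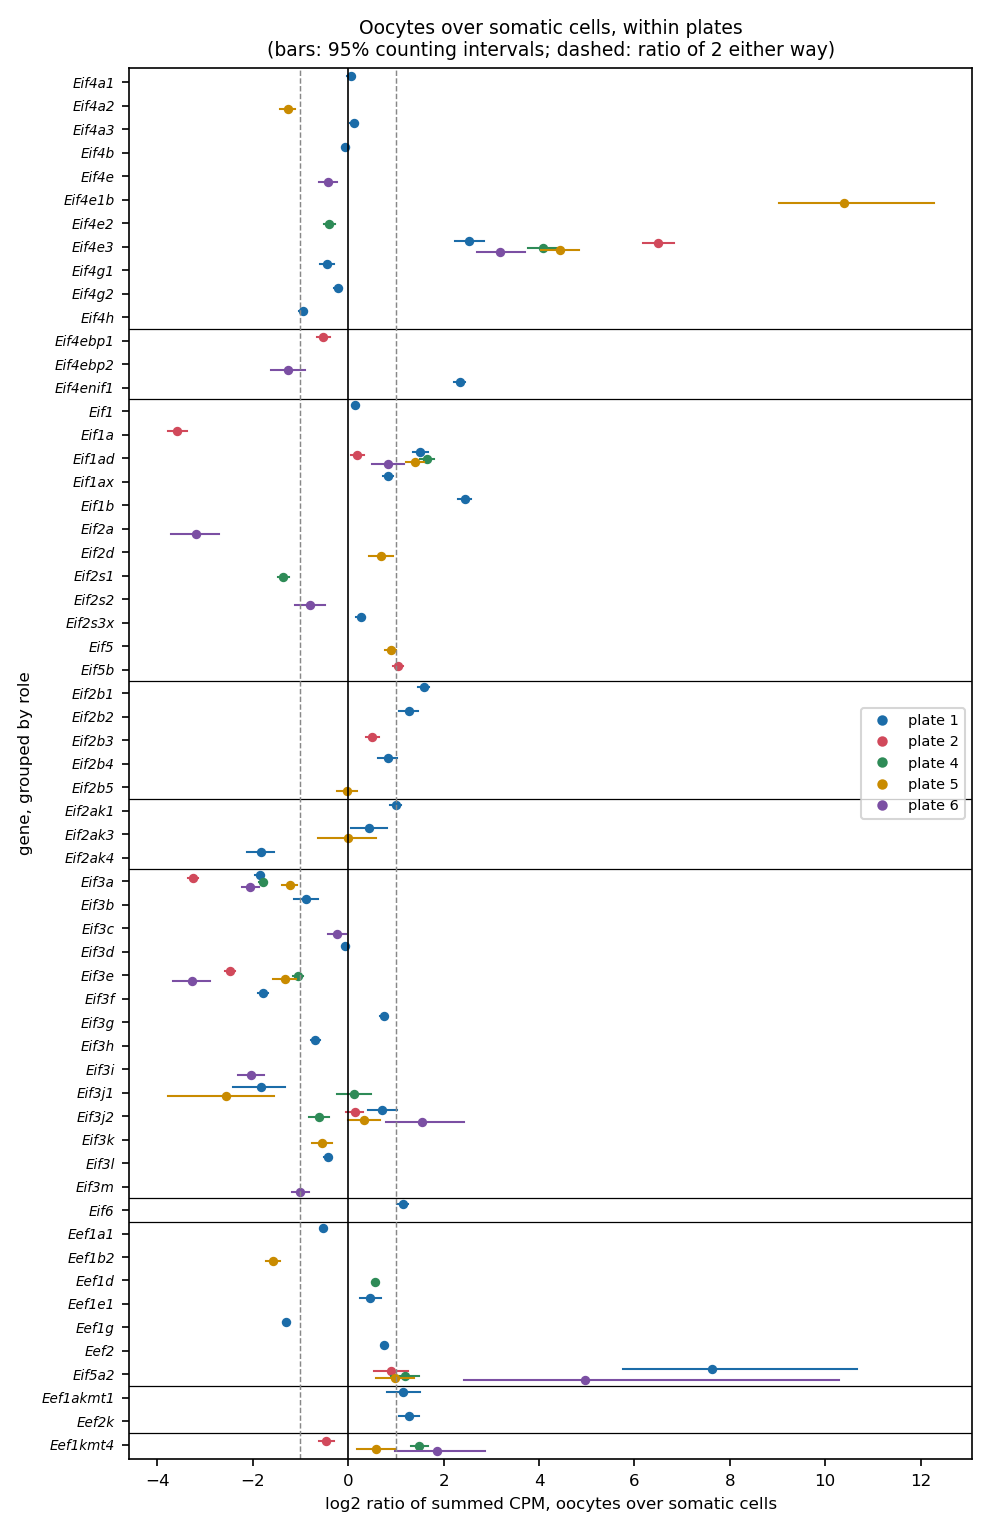
Log2 ratio of summed CPM, oocytes over somatic cells, for the factor genes past the minimum on each plate, with 95% counting intervals. Dashed lines mark a ratio of 2 in either direction; Eif4e3 lies right of the upper line on all 5 plates, Eif3a left of the lower line on all 5, and Eif3e left of it on the 4 plates that list it.

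Over plates, 9 of the genes could be compared on 2 or more. Eif4e3 was the 1 gene higher in oocytes on every plate with values, and Eif3a and Eif3e were the 2 lower on every one, beside 10.3% and 48.2% of 3819 genes that met the same rule. Of these 9, 1 was thus higher and 2 were lower, shares near or below those of all genes. With cells of the same stage, which plates 1, 4 and 5 could give, and with the primordial cells of plate 1, Eif4e3 and Eif3a fell out on plate 1, and the genes called on every plate were Eif5a2, higher, and Eif3e, lower.

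Eif4e3 (ENSMUSG00000093661, chr6:99625135-99666771, minus strand, GRCm38) encodes a member of the cap-binding eIF4E family. On plate 4, where all cells were transitioning, the 15 oocytes had 134.2 to 1004 CPM with a median of 455, and the 16 somatic cells 0 to 113.5 with a median of 0. Eif4e3 was the 1 factor gene whose cells did not overlap between the types on any plate, which was plate 4. Of all genes, 0.259%, 3.75%, 2.63%, 0.322% and 4.59% were higher in oocytes with no overlap on plates 1, 2, 4, 5 and 6. The summed level was 432 CPM in oocytes and 25.3 CPM in somatic cells, a log2 ratio of 4.09 [3.76, 4.44], and 3.55 among the cells that shared a plate code.

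The difference in Eif4e3 was also present on the plates of mixed stage, with more overlap between cells. On plate 2 oocytes had 131.3 to 5577 CPM (median 1665) and somatic cells 0 to 443 (median 0), and 5 of 8 oocytes lay above the highest somatic cell. On plate 5 oocytes had 23 to 770 CPM (median 524) and somatic cells 0 to 304 (median 0), with 9 of 10 oocytes above. On plate 6 oocytes had 252 to 1347 CPM (median 673) and somatic cells 0 to 563 (median 0), with 10 of 13 above. The cells of plate 1 overlapped in full: oocytes had 0 to 263 CPM (median 48.9) and somatic cells 0 to 276 (median 0), with 0 of 13 oocytes above the highest somatic cell.

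The log2 ratio of Eif4e3 was 2.53 [2.23, 2.84] on plate 1, 6.5 [6.18, 6.83] on plate 2, 4.43 [4.04, 4.83] on plate 5 and 3.18 [2.70, 3.71] on plate 6. Single somatic cells held much of the somatic sum, so the ratio was 3.44 without transitioning cell 1 of plate 1, 7.18 without primary cell 25 of plate 2 and 4.08 without secondary cell 27 of plate 6. On plate 1 the value also followed the stage, at 0.71 between primordial cells alone and 6.02 between primary cells alone, and it was 1.55 without the 3 oocytes that stood apart. On plate 5 it was 4.72 without primordial oocyte 13 and 5.38 between secondary cells alone. The somatic level was 21.4, 23.5, 25.3, 20.4 and 79.1 CPM on plates 1, 2, 4, 5 and 6, and 240 CPM on plate 3, with reads in 14 of 22 cells there. These levels are scaled over different genes and are not compared. Oocyte markers took 0.111% and 0.244% of the counts of the somatic cells of plates 3 and 6, and 0.00169% to 0.0347% on plates 1, 2, 4 and 5. These shares rest on different markers by plate, 8 of 19 on plate 3 and 7 on plate 6, and are not compared either. The oocytes of plate 6 gave 6.16% to those 7, against 0.463% to 1.11% to the markers listed on plates 1, 2, 4 and 5. The part of oocyte RNA in the somatic levels of Eif4e3 was not tested.

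**Figure D3:**
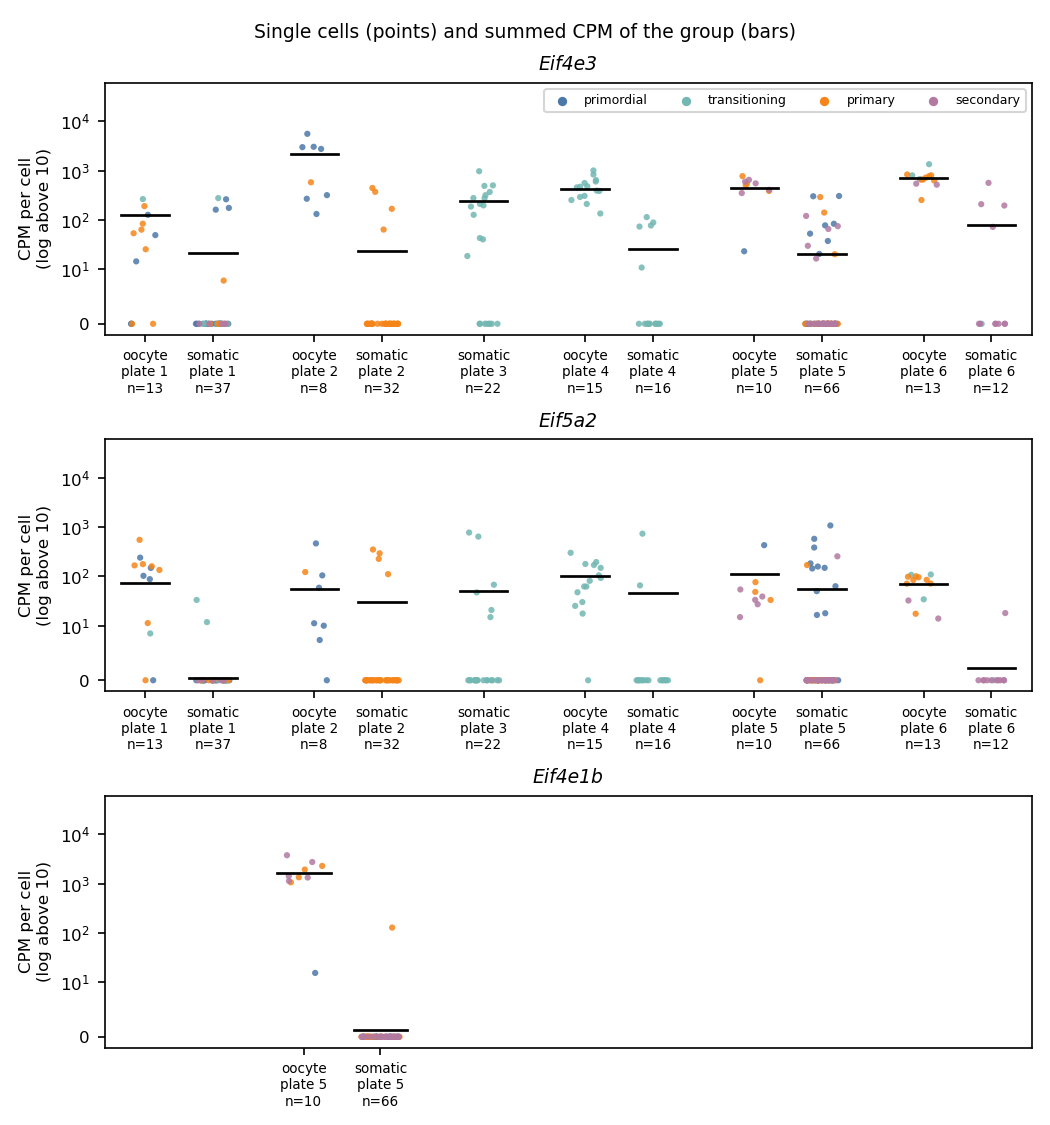
CPM of single cells for Eif4e3, Eif5a2 and Eif4e1b on each plate with values, oocytes left of somatic cells. Each point is 1 cell coloured by follicle stage, bars are the summed CPM of the group, and the axis is logarithmic above 10; Eif4e3 points of oocytes lie above every somatic point on plate 4 and overlap with them in full on plate 1.

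Eif4e1b (chr13:54783998-54788459, plus strand) encodes an eIF4E form known from oocytes, and its values were on plate 5 alone. Primordial oocyte 13, which stood apart, had 15.3 CPM, the 4 primary oocytes 2282, 1341, 1926 and 1058 CPM, and the 5 secondary oocytes 1414, 2741, 3761, 1326 and 1126 CPM. Of the 66 somatic cells 1 had reads, 4 counts or 127.7 CPM. Thus 9 of 10 oocytes lay above the highest somatic cell. The sums were 1640 CPM in oocytes and 1.22 CPM in somatic cells, a log2 ratio of 10.39 [9.03, 12.27] that rests on those 4 somatic counts. By stage, the summed level was 2343 CPM in the secondary oocytes and 1731 CPM in the primary ones, and their single cells overlapped.

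The canonical cap-binding gene Eif4e was listed on plate 6 alone and was close in both cell types. Oocytes had 316 to 882 CPM (median 496) and somatic cells 23.5 to 2814 (median 515). The sums of 595 CPM in oocytes and 799 CPM in somatic cells gave a log2 ratio of −0.42 [−0.62, −0.23], under the size used for a call, and 0.06 without secondary somatic cell 14. Compared per length within oocytes, across plates that were scaled over different genes, the highest levels of the cap-binding genes were 843 CPM per kb for Eif4e3 on plate 2 and 727 CPM per kb for Eif4e1b on plate 5.

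For the eIF4A helicase, Eif4a1 was level between the types on plate 1, at 903 CPM in oocytes (475 to 1950, median 1062) and 872 CPM in somatic cells (0 to 3466, median 775), a log2 ratio of 0.05. Its paralogue Eif4a2, on plate 5, was lower in oocytes, at 557 CPM (0 to 2130, median 182.4) against 1343 CPM in somatic cells (20.5 to 4322, median 1280). The ratio was −1.27, and primordial oocyte 13 held 73.2% of the oocyte counts, so that it was −2.86 without it. Over the 12 genes on the cap-binding and helicase list, the numbers called higher and lower were 1 and 0 of 7 compared on plate 1, 1 and 0 of 1 on plate 2, 1 and 0 of 2 on plate 4, 2 and 1 of 3 on plate 5, and 1 and 0 of 2 on plate 6. Of all genes, 21.5% to 25.9% were higher and 37.9% to 59.1% lower on these plates.

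Eif4enif1 encodes 4E-T, which holds eIF4E away from the ribosome and carries it into the nucleus. On plate 1 oocytes had 0 to 1974 CPM (median 303) and somatic cells 0 to 742 (median 4.99). The summed level was 814 CPM in oocytes and 161.3 CPM in somatic cells, a log2 ratio of 2.34, but primary oocyte 1 held 56.4% of the oocyte counts and the ratio was 1.52 without it. It was 0.96, under the size of a call, without the 3 oocytes that stood apart.

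Eif3a (chr19:60761117-60790658, minus strand) encodes the largest subunit of eIF3, which organizes the rest of the complex, and it was the only factor gene called on all 5 plates besides Eif4e3. On plate 4 oocytes had 8.36 to 1532 CPM (median 413) and somatic cells 0 to 3711 (median 1664), and 15 of 15 oocytes lay below the somatic median. On plate 2 oocytes had 137.99 to 668 CPM (median 221.97) and somatic cells 0 to 4510 (median 2455), with 8 of 8 below. On plate 6 oocytes had 210 to 556 CPM (median 460) and somatic cells 550 to 3555 (median 1881), with 13 of 13 below. These oocytes were grouped low. Single somatic cells of plates 2 and 4 ranged from 0 to far above the oocytes, while on plate 6 the types overlapped only between 550 and 556 CPM.

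On plates 1 and 5 most oocytes also lay below the somatic median of Eif3a. On plate 1 oocytes had 138.6 to 958 CPM (median 404) and somatic cells 0 to 4111 (median 793), with 11 of 13 oocytes below the somatic median. On plate 5 oocytes had 233.1 to 766 CPM (median 431) and somatic cells 0 to 3022 (median 1129), with 10 of 10 below. The log2 ratio was −1.85 [−1.95, −1.76] on plate 1, −3.25 [−3.35, −3.15] on plate 2, −1.78 [−1.87, −1.70] on plate 4, −1.23 [−1.39, −1.07] on plate 5 and −2.05 [−2.23, −1.88] on plate 6. Between primordial cells alone it was −0.55 on plate 1, and without the oocytes that stood apart −1.38 on plate 1 and −1.42 on plate 5. With median-of-ratios factors in place of totals it was −0.82 on plate 4 and −0.92 on plate 5, under the size of a call.

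Eif3e (chr15:43250058-43282719, minus strand), another eIF3 subunit, was listed on plates 2, 4, 5 and 6. On plate 6 oocytes had 0 to 224.1 CPM (median 68.2) and somatic cells 0 to 1640 (median 494), and 13 of 13 oocytes lay below the somatic median. On plate 2 oocytes had 71.7 to 1026 CPM (median 261) and somatic cells 0 to 3855 (median 1383), with 8 of 8 below. On plate 5 oocytes had 54.1 to 644 CPM (median 126.9) and somatic cells 0 to 1648 (median 529), with 9 of 10 below. The pattern was weakest on plate 4, the plate of matched stage, where oocytes had 59.3 to 661 CPM (median 261) and somatic cells 30.4 to 1830 (median 615), with 14 of 15 below.

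The log2 ratio of Eif3e was −2.48 [−2.58, −2.37] on plate 2, −1.05 [−1.16, −0.94] on plate 4, −1.32 [−1.57, −1.08] on plate 5 and −3.28 [−3.67, −2.91] on plate 6. On plate 4 the call was lost without somatic transitioning cell 33, at −0.88, and with TMM or median-of-ratios factors, at −0.29 and −0.08. On plate 5 the ratio was −2.17 without primordial oocyte 13.

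**Figure D4:**
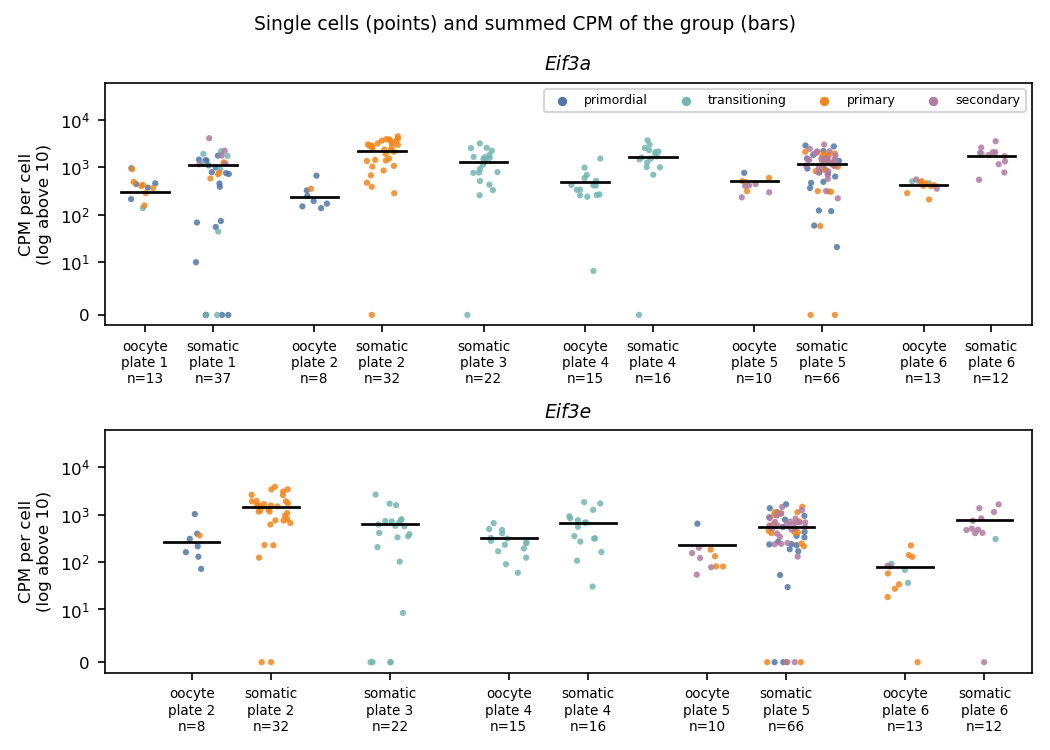
CPM of single cells for Eif3a and Eif3e on each plate with values, oocytes left of somatic cells. Each point is 1 cell coloured by follicle stage, bars are the summed CPM of the group, and the axis is logarithmic above 10; oocyte points are grouped below most somatic points, with Eif3e on plate 4 showing the narrowest gap.

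Of the eIF3 list as a whole, 3 of 9 genes compared were lower in oocytes on plate 1 (median log2 ratio −0.69), 2 of 3 on plate 2 (−2.48), 2 of 4 on plate 4 (−0.83), 3 of 5 on plate 5 (−1.23) and 4 of 6 on plate 6 (−1.52). Of all genes, 37.9%, 59.1%, 53.7%, 48% and 51.7% were lower on these plates, so the shares of the list were near those of all genes. On plate 6 1 was higher, Eif3j2, named after its values were seen, and with median-of-ratios factors the direction of the list turned on plate 4, to 1 higher, 0 lower and a median of 0.14. Eif3j1 and Eif3j2, which encode the loosely bound subunit j, cannot be separated well by sequence: 94.9% of the stretches of 31 bases in Eif3j2 transcripts also occur in other genes, nearly all in Eif3j1. Eif3j1 had log2 ratios of −1.83, 0.12 and −2.56 on plates 1, 4 and 5, and that of plate 1 was −0.11 without somatic transitioning cell 6. Eif3f, named after its values were seen and for its TOP start, had 305 CPM in oocytes (43.7 to 919, median 477) and 1051 CPM in somatic cells (0 to 3101, median 876) on plate 1, a ratio of −1.79. Eif3l was under the size of a call there, at 735 CPM in oocytes and 989 CPM in somatic cells and a ratio of −0.43.

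The most abundant factor genes of both types were Eef1a1, whose product brings aminoacyl-tRNA to the ribosome, and Eef2, whose product moves the ribosome by a codon. Both were listed on plate 1 alone. Eef1a1 had 4393 to 20816 CPM in oocytes (median 13848) and 429 to 44659 in somatic cells (median 15553), with sums of 12686 CPM in oocytes and 18343 CPM in somatic cells and a log2 ratio of −0.53 [−0.55, −0.52]. Eef2 ran the other way, with 1254 to 17842 CPM in oocytes (median 13319) and 0 to 10543 in somatic cells (median 4353), sums of 8994 CPM in oocytes and 5309 CPM in somatic cells and a ratio of 0.76 [0.74, 0.78]. Neither reached the size of a call, although that of Eef2 was 1.09 without primary oocyte 1 and 1.48 without the 3 oocytes that stood apart. With all cells, Eef2 did reach it with TMM or median-of-ratios factors and with the mean CPM of single cells. Per length, Eef1a1 had 5089 CPM per kb in oocytes and 7358 in somatic cells, and Eef2 2706 and 1597. The value of Eef1a1 is uncertain because 51.5% of its stretches of 31 bases occur in other genes, against 21.2% for Eef2. Eef1a2, the form known from muscle and neurons, had 0 counts in every cell, with limits of 0.558 to 6.59 CPM per group at 3 counts.

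The hypusine-bearing factor eIF5A, which helps the ribosome past difficult stretches, has 2 genes. Eif5a had values on plate 3 alone, at 2082 CPM in somatic cells (0 to 4794, median 1327), with reads in 21 of 22 cells. Eif5a2 (chr3:28781276-28798846, plus strand), whose upstream bases are shown above, was listed on every plate and had 51.5 CPM in those same cells. On plate 1 nearly all Eif5a2 counts were in oocytes, with 0 to 550 CPM (median 134.6) against 0 to 33.2 in somatic cells (median 0), and 9 of 13 oocytes lay above the highest somatic cell. On plate 6 oocytes had 13.9 to 108.8 CPM (median 84) and somatic cells 0 to 17.9 (median 0), with 11 of 13 above.

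The other plates held somatic cells with high Eif5a2. Oocytes had 0 to 465.5 CPM (median 34.9) on plate 2, 0 to 300 (median 81) on plate 4 and 0 to 429 (median 36.1) on plate 5, and somatic cells had medians of 0 and highest values of 350, 734 and 1077 CPM on those plates. No oocyte of plates 4 and 5, and 1 of 8 on plate 2, lay above the highest somatic cell. The log2 ratio was 7.62 [5.75, 10.67] on plate 1, from 252 counts in oocytes and 2 in somatic cells, and 4.96 [2.43, 10.29] on plate 6, from 61 counts and 1. It was 0.89 [0.54, 1.25] on plate 2, 1.18 [0.90, 1.48] on plate 4 and 0.99 [0.58, 1.39] on plate 5. Single cells carried those values: the ratio was 1.96 without somatic primary cell 10 of plate 2, 4.15 without somatic transitioning cell 44 of plate 4, 1.59 without somatic primordial cell 21 of plate 5, and −0.68 without primordial oocyte 13 of plate 5. On plate 1 it was 8.61 without somatic transitioning cell 5 and on plate 6 3.19 without somatic secondary cell 8, which held the 1 somatic count.

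Of the genes on the elongation factor list, 1 was higher and 1 lower of 5 compared on plate 1, 1 and 0 of 2 on plate 4, 0 and 1 of 2 on plate 5, and 1 and 0 of 1 on plate 6. Of all genes, 25.9% were higher and 37.9% lower on plate 1, and 23.1% to 24.1% and 48% to 53.7% on plates 4, 5 and 6. Without the oocytes that stood apart, 3 were higher and 0 lower of the 5 on plate 1. Of the enzymes that act on these factors, Eef2k, the kinase that inhibits eEF2, had 136.2 CPM in oocytes (0 to 222.2, median 87.6) and 56.2 CPM in somatic cells (0 to 897, median 0) on plate 1. Its log2 ratio was 1.28, and 0.97 without primary oocyte 1. Eef1akmt1, a lysine methyltransferase of eEF1A, had 50.5 CPM in oocytes and 22.7 CPM in somatic cells, a ratio of 1.15 that was 0.94 without primordial oocyte 4. Eef1e1, a part of the aminoacyl-tRNA synthetase complex, had 97 CPM in oocytes and 70.3 CPM in somatic cells, a ratio of 0.46. The last was 1.05 without somatic primary cell 56.

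Among the genes of start codon selection, the paralogues Eif1 and Eif1b were unlike on plate 1. Eif1b had 368 to 1201 CPM in oocytes (median 593) and 0 to 851 in somatic cells (median 0), with sums of 586 CPM in oocytes and 107.7 CPM in somatic cells and a log2 ratio of 2.44 [2.31, 2.58]. Eif1 had 0 to 1585 CPM in oocytes (median 1064) and 0 to 1817 in somatic cells (median 631), with sums of 878 and 791 CPM and a ratio of 0.15. Every oocyte had Eif1b reads, and 16 of 37 somatic cells did. Of the stretches of 31 bases in their transcripts, 7.80% for Eif1b and 23% for Eif1 also occur in other genes. On plate 3 the somatic cells had 232.99 CPM of Eif1b.

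The genes for eIF1A were on different plates. Eif1ax, on plate 1, had 240 to 1100 CPM in oocytes (median 476) and 0 to 789 in somatic cells (median 8.31), with sums of 387 and 217.1 CPM and a log2 ratio of 0.83, under the size of a call. Eif1a, on plate 2, had 14.9 to 130 CPM in oocytes (median 53.6) and 0 to 2212 in somatic cells (median 616), with sums of 63.1 and 756 CPM and a ratio of −3.58 [−3.79, −3.38], and 8 of 8 oocytes lay below the somatic median. As the oocytes of that plate were mostly primordial and its somatic cells all primary, stage and cell type cannot be told apart for Eif1a.

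Eif1ad, named for its eIF1A domain, was listed on every plate and had log2 ratios of 1.51, 0.19, 1.65, 1.40 and 0.83 on plates 1, 2, 4, 5 and 6. The summed level was 297 CPM in oocytes and 104.01 CPM in somatic cells on plate 1, 478 and 152.3 CPM on plate 4, and 544 and 205.8 CPM on plate 5. On plate 2 it was 245.5 CPM in oocytes and 214.6 CPM in somatic cells, and on plate 6 371 and 208.8 CPM. On plate 4 oocytes had 0 to 995 CPM (median 405) and somatic cells 0 to 1243 (median 56.2), and the ratio was 2.29 without somatic transitioning cell 42. The call on plate 5 was lost without primordial oocyte 13, at 0.70, and the value of plate 6 became a call without somatic transitioning cell 46, at 2.35.

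The initiator tRNA factor eIF2 and its regulators gave small or uneven differences. Eif2s3x, the X-linked gene of the eIF2 gamma subunit, had 51.6 to 1066 CPM in oocytes (median 654) and 0 to 1511 in somatic cells (median 2.77) on plate 1, with sums of 450 and 374 CPM and a log2 ratio of 0.27. Its Y-linked paralogue Eif2s3y had 0 counts in every cell. Ovaries come from females. The exchange factor genes were at or above the level of somatic cells on plate 1: Eif2b2 had 156.5 CPM in oocytes (0 to 735, median 202.01) and 65.1 CPM in somatic cells (0 to 660, median 0), a ratio of 1.27, and 1.96 without somatic secondary cell 2. Eif2b4 had 133.9 CPM in oocytes and 75.5 CPM in somatic cells, a ratio of 0.83, and 1.10 without the same cell. Of the eIF2B list, 2 were higher and 0 lower of 3 on plate 1, and 0 of 1 were called on plates 2 and 5, beside the 25.9% of all genes higher on plate 1.

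Of the eIF2 kinases, which answer stress and want of amino acids, Eif2ak4 (GCN2) had 36.9 CPM in oocytes (0 to 183.4, median 36.8) and 131.7 CPM in somatic cells (0 to 879, median 0) on plate 1. The log2 ratio of sums was −1.84 although the oocyte median was the higher, and it was −1.08 without somatic transitioning cell 3, which held 44.8% of the somatic counts. Eif2ak3 (PERK) had 31.6 and 23.4 CPM on plate 1, and 42.5 and 42.6 CPM on plate 5, in oocytes and somatic cells. Its ratio on plate 1, 0.43, was 2.26 without somatic secondary cell 5. Eif6, whose product keeps the large ribosomal subunit from joining too early, had 477 CPM in oocytes (0 to 682, median 432) and 216.4 CPM in somatic cells (0 to 2870, median 0) on plate 1, a ratio of 1.14.

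With all cells and total counts as the scale, the genes of the TOP list that were called were lower in oocytes. The numbers lower were 3 of 8 on plate 1 (median log2 ratio −0.61), 2 of 2 on plate 2 (−2.86), 2 of 3 on plate 4 (−1.05), 3 of 3 on plate 5 (−1.32) and 2 of 2 on plate 6 (−2.67), beside 37.9%, 59.1%, 53.7%, 48% and 51.7% of all genes. None was higher on that scale, but other settings gave higher calls. Among them, Eef2 was higher on plate 1 with TMM or median-of-ratios factors and with the mean CPM of single cells. Eef1d was higher on plate 4 with TMM or median-of-ratios factors, and the list there had 1 higher and 0 lower with the second. Without the oocytes that stood apart, 1 was higher and 2 lower on plate 1. On plate 1, where most of the list was compared, its share was thus near that of all genes, and the other plates compared 2 or 3 genes each. Eif3a and Eif3e are on both this list and that of eIF3. Ribosomal protein genes, the main class of TOP mRNA outside the factors, were lower in 27 of 31 on plate 1 (median −1.85), 8 of 17 on plate 2 (−0.71), 2 of 20 on plate 4 (−0.19), 28 of 31 on plate 5 (−1.61) and 18 of 21 on plate 6 (−2.50), and 1 or 2 were higher on each plate. On plate 1 the factors therefore lay above the ribosomal protein genes of the same cells, with medians of 0.35 and −1.85. Of 21 other translation factor genes in the table, such as those of poly(A)-binding proteins and release factors, 2 were higher and 0 lower of 11 on plate 1, and 1 higher and 2 lower of 6 on plate 5, with medians of −0.20 and 0.26. Plates 2, 4 and 6 each compared 1 of them.

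Stages of somatic cells could be compared on plates 1 and 5. On plate 1, transitioning over primordial cells, 8 were higher and 6 lower of 32 genes, against 28.5% and 44.8% of all genes, with a median log2 ratio of 0.11 against −0.60. Primary over transitioning cells gave 11 higher and 5 lower of 34, against 41.9% and 30.6%, with medians of 0.46 and 0.40. Primary over primordial cells, which share the same primary cells, gave 12 higher and 3 lower of 34, against 32.3% and 36.7%, with medians of 0.50 and −0.10. Secondary over primary cells gave 6 higher and 2 lower of 33, against 29.5% and 27.1%, with medians of 0.19 and 0.02. On plate 5, primary over primordial cells gave 2 higher and 4 lower of 15, against 34.5% and 23.2%, and secondary over primary cells 3 higher and 0 lower of 15, against 24% and 21%. In either direction these 6 comparisons called 73.3%, 72.5%, 68.9%, 56.5%, 57.7% and 45% of all genes, beside 14 of 32, 16 of 34, 15 of 34, 8 of 33, 6 of 15 and 3 of 15 factor genes. The split of plate 5 in primary over primordial cells was 6 and 3 with totals over the genes listed on every plate, 1 and 5 with TMM or median-of-ratios factors, and 1 and 6 with totals without mitochondrial, ribosomal and clone genes. On plate 1 the same totals gave 9 and 7 in primary over transitioning cells. The mean CPM of single cells gave 6 and 4 in secondary over primary cells of plate 1, and 2 and 1 on plate 5. Of these 62 calls, 34 were lost when 1 cell was left out. The median total count of the 19 primordial, 8 transitioning, 5 primary and 5 secondary somatic cells of plate 1 was 63071, 81408, 361900 and 311480, in that order. The median share of rRNA reads was 32.4%, 10.9%, 15.5% and 16.1%, that of mitochondrial reads 6.24%, 12.9%, 5.83% and 2.52%, and that of intergenic bases 17.7%, 19.4%, 8.09% and 8.12%. The part of depth and of these measures in the stage differences was not tested.

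Eef1a1 and Eef2, the most abundant genes, were not called in any stage comparison of somatic cells, nor were Eif1 and Eif1b. Over primordial, transitioning, primary and secondary stages in that order, Eef1a1 had 16737, 14321, 19938 and 21567 CPM, and Eef2 had 5278, 4744, 4896 and 6152 CPM. Eif1 had 730, 1044, 807 and 652 CPM and Eif1b 125.2, 75.5, 144.7 and 78.8 CPM. Eif3a had 600, 1196, 884 and 1755 CPM on plate 1, and 830, 1295 and 1481 CPM in primordial, primary and secondary cells of plate 5. Eif3e had 400, 596 and 701 CPM on plate 5, and Eif4a2 1423, 1730 and 1012 CPM.

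Eif4a1, the helicase gene, was higher in primary somatic cells of plate 1, at 920, 935, 1297, 1442 and 1619 CPM in single cells. Transitioning cells had 0 to 1917 CPM (median 549) and primordial cells 0 to 3466 (median 572). The sums were 607, 535, 1258 and 1045 CPM over the 4 stages in order. The log2 ratio was 1.23 [1.10, 1.37] over transitioning cells, and 1.05 [0.94, 1.17] over primordial cells, the second of which was 0.88 without primary cell 4. Eif1ax had 77.3, 270, 248 and 297 CPM in the same order, with a ratio of primary over primordial cells of 1.68 [1.38, 2.0]. That of transitioning over primordial cells, 1.81, was −1.39 without transitioning cell 3.

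Several genes of low level had reads in few of the earlier cells. Eef1e1 had 9.17, 0, 196.9 and 69.7 CPM over the 4 stages in order, and the 5 primary cells had 0, 0, 52.6, 247 and 395 CPM. Its log2 ratio of primary over primordial cells was 4.42 [3.65, 5.31], and 3.75 and 6.53 without primary cell 56 and primordial cell 13, and primary over transitioning cells it was at least 6.14 against a floor of 3 counts over the group. Secondary over primary cells it was −1.5, and −0.83 without primary cell 56. Eef1akmt1 had 6.55, 2.80, 38 and 40.4 CPM, with ratios of 3.77 [2.14, 6.09] in primary over transitioning and 2.54 [1.54, 3.68] in primary over primordial cells. Without primary cell 1 these were 3.06 and 1.83. Eef2k had 1.31, 106.3, 20.1 and 110.8 CPM, and its ratio of primary over transitioning cells, −2.40, was 2.47 without transitioning cell 6.

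Eif4e3, which was higher in oocytes, was lower in primary and secondary than in primordial somatic cells of plates 1 and 5. On plate 1 its level over the 4 stages in order was 36.8, 52.2, 2.24 and 0 CPM. The log2 ratio of primary over transitioning cells was −4.54 [−6.87, −2.92] and that of primary over primordial cells −4.04 [−6.36, −2.41]. Both rest on 3 counts in primary cells. Reads were in 1 of 8 transitioning and 3 of 19 primordial cells, so the first ratio also rests on 1 transitioning cell. On plate 5 it had 33.4, 10.3 and 13.1 CPM in primordial, primary and secondary cells, with a ratio of primary over primordial cells of −1.70, which was −0.98 without primordial cell 23. The 11 secondary somatic cells of plate 6, which was scaled over other genes, had 87.3 CPM of Eif4e3. Eif5a2 had 124.7, 6.41 and 13.9 CPM on plate 5 and a ratio of primary over primordial cells of −4.28. That of secondary over primary cells, 1.12, was −1.31 without secondary cell 23.

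Among the regulators of eIF2, 2 genes of the exchange factor had uneven values over the stages. Eif2b4 had 24.2, 0.932, 82.8 and 179.1 CPM over the 4 stages of plate 1, and Eif2b2 59, 15.9, 20.1 and 150.6 CPM. The 5 secondary cells had 3.21, 143.5, 204.8, 246 and 555 CPM of Eif2b4. The log2 ratio of secondary over primary cells was 1.11 for Eif2b4, and 0.59 without primary cell 3, and 2.90 [2.32, 3.54] for Eif2b2, and 1.66 without secondary cell 2. Primary over transitioning cells, that of Eif2b4 was 6.47 from 1 count in transitioning cells, with an interval of [3.96, 11.79]. Primary over primordial cells it was 1.77, and 0.84 without primary cell 2, while Eif2b2 was at −1.55, and −0.52 without primordial cell 16.

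Of the kinases, Eif2ak4 had 93.1, 425, 17.2 and 60.6 CPM over the 4 stages, with a log2 ratio of primary over transitioning cells of −4.63 [−5.30, −4.03], and −3.51 without transitioning cell 3. Without the same cell, its ratio of transitioning over primordial cells was 1.07 in place of 2.19. Eif2ak3 had 0 counts in primordial, transitioning and primary cells of plate 1 and 87.8 CPM in secondary cells, from 2 of 5 cells at 125.8 and 972 CPM. On plate 5 it had 41.3, 12.8 and 63 CPM in primordial, primary and secondary cells, and the ratio of secondary over primary cells was 2.30 [1.34, 3.41], and of primary over primordial cells −1.69, or −0.75 without primordial cell 30.

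For the other genes called in the same direction in at least 2 stage comparisons, most calls rested on 1 cell. Eif3l had 465.9, 561, 1342 and 1536 CPM over the 4 stages of plate 1, and its log2 ratios of primary over primordial and over transitioning cells, 1.53 and 1.26, were 0.96 and 0.69 without primary cell 56. Eif6 had 110.7, 116.5, 314 and 312 CPM, and its ratios of 1.5 and 1.43 were 0.65 and 0.58 without the same cell. Eif2s3x had 230, 86.7, 581 and 550 CPM, with a ratio of primary over transitioning cells of 2.74 [2.43, 3.07], and 1.55 without primary cell 3, without which that of primary over primordial cells was 0.15 in place of 1.34. These 3 genes had their higher sums in primary and secondary cells.

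Eif1ad, Eif3j1 and Eif4enif1 had uneven values as well. Eif1ad had 74, 36.4, 161.1 and 133.1 CPM, with a log2 ratio of primary over transitioning cells of 2.15 and of primary over primordial cells of 1.12, or 1.46 and 0.43 without primary cell 56. Eif3j1 had 16.7, 137.5, 8.62 and 4.69 CPM, and its ratio of transitioning over primordial cells, 3.04, was −0.27 without transitioning cell 6. Eif4enif1 had 94.4, 265, 258 and 64.8 CPM, with a ratio of transitioning over primordial cells of 1.49 [1.19, 1.79]. Its ratio of primary over primordial cells was 1.45, and −0.50 without primary cell 4.

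Oocyte stages could be compared with at least 5 cells each on plate 1 alone, between 7 primary and 5 primordial oocytes. Of 35 genes, 3 were higher and 11 lower in primary oocytes, against 11% and 29% of all genes and 40.1% in either direction, with a median log2 ratio of −0.81 against −0.51. Of these 14 calls, 13 were lost when 1 cell was left out: without primary oocyte 1, which stood apart, 1 gene was higher and 1 lower, and the median was −0.06. With all cells, TMM or median-of-ratios factors gave 3 and 3, totals over the genes listed on every plate 1 and 26, and totals without mitochondrial, ribosomal and clone genes 3 and 6. The 2 genes called without primary oocyte 1 were Eif2ak4 at 1.40 and Eif2ak3 at −3.44. Eef2 had 4909 CPM in primary and 14337 CPM in primordial oocytes, a ratio of −1.55 that was −0.18 without primary oocyte 1, which had 1254 CPM against 9007 to 13980 in the other 6 primary oocytes. Eif4enif1 had 1418 and 356 CPM and a ratio of 1.99, or −0.54 without that cell, and Eif4e3 had 145.5 and 60.2 CPM and a ratio of 1.27, or −0.19 without it. For Eif1, Eef1e1 and Eef2k the ratios were −1.18, −1.12 and 1.02 with the cell and −0.16, 0.05 and −0.41 without it.

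**Figure D5:**
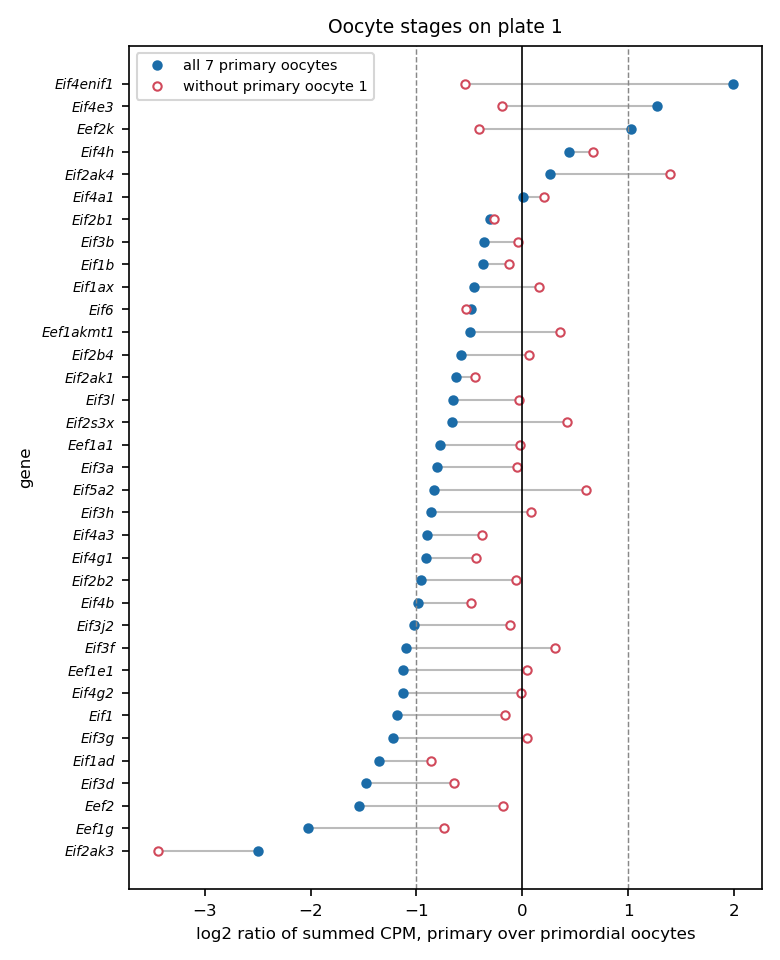
Log2 ratio of summed CPM, primary over primordial oocytes of plate 1, for the 35 genes compared, with all 7 primary oocytes and without primary oocyte 1. Dashed lines mark a ratio of 2 in either direction; 14 genes lie outside them with all cells and 2 without that cell.

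On other plates the oocyte stages had under 5 cells on 1 side, and values alone are given. Over plates 5 and 6, Eif4e3 had log2 ratios of 0.04 in secondary over primary oocytes of plate 5, −0.45 in primary over transitioning oocytes of plate 6 and −0.40 in secondary over primary oocytes of plate 6. In the same order, Eif3a had −0.36, −0.24 and 0.20 and Eif3e 0.22, 0.12 and 0.06. These genes, the ones that differed between oocytes and somatic cells on every plate with values, thus differed by less than the size of a call between these stages of oocytes. Eif1ad had −0.26, 0.83 and −2.03 and Eif5a2 −0.03, −0.06 and −1.76, with 2 secondary oocytes behind the last value of each. On plate 2, the 1 primary oocyte had 578 CPM of Eif4e3 and the 7 primordial oocytes 131.3 to 5577 CPM (median 2751).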

How the data were processed

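Libraries of 244 single cells were made by SMART-Seq2 and sequenced as paired ends. Per the study's methods, the authors aligned the reads to GRCm38, worked in Seurat v4, removed cells with few genes or with a high score for the other cell type, and kept protein-coding genes for their own analysis. The deposited table holds estimated counts per gene and cell, not normalized, and 17.2% of those above 0 are not whole numbers. The tool that made them is not given in the sources used here. The deposited cell table gives the fraction of reads on rRNA, mitochondria, intergenic bases and duplicates, the ratio of coverage at transcript ends, and a total read count, all made by the authors.

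Of 25149 rows, 27 that carry dates in place of gene names were left out (0.0743% of the counts). Missing values (32.9% of the table) were treated as no value. Sample titles gave cell type and stage, and they differ in stage from the cell table for 2 somatic cells. No pair of cells had identical counts, with correlations of at most 0.934 within a plate. Counts were summed over cells of a group on a plate, with at least 5 cells a group, and divided by their total over the genes that the plate lists. A gene was compared where the mean CPM of both groups was at least 10. Exact Poisson intervals were computed for sums, and for ratios intervals from the binomial split of the counts, rounded where needed, all at 95%. A sum of 0 was set to a floor of 3 counts. The total count per cell, 5150 to 801258, limits what can be seen in a single cell.

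Values were printed for genes called on every plate with values (at least 2), the 3 of highest CPM in each cell type, those called in the same direction in 2 or more stage comparisons, and fixed paralogue pairs. The genes, lists and comparisons were chosen with earlier results of these data known. The alternatives were TMM factors from edgeR 4.0.16 and, as another, median-of-ratios factors from DESeq2 1.42.0, both used on the counts for scaling alone, mean CPM of single cells, totals over other gene sets, other thresholds, cells of the same stage, shallow cells or cells with conflicting stages left out, and each cell left out in turn. Those added after the data were seen were cells of the same plate code, somatic cells with stroma markers left out, and the 4 oocytes that stood apart left out. The calculation was tested on simulated Poisson counts in which cells of a group differed only in their totals. That test therefore says nothing about the spread between cells seen here. Gene positions, and the transcripts searched for shared stretches of 31 bases, are those of the GENCODE annotation of GRCm38, and sequences are from RefSeq (GRCm38.p6). Work was done in Python 3.11.15 (numpy 2.4.6, pandas 2.3.3, scipy 1.17.1, matplotlib 3.10.9) and R 4.3.3.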

Additional observations from a re-analysis of the deposited data

Results flagged for a closer look

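In 9 groups of 4 to 10 cells of 1 stage on a plate, a cell far from the rest was looked for, and 14 of 48 combinations of a group with a gene or with the sum of all genes had one, in 7 of the groups. For normally distributed values chance gives about 1 in 20, a rate that need not hold where many cells are at 0. On plate 1, all initiation and elongation factor genes together had 16819 CPM in primary oocyte 1 and 18106 CPM in primordial oocyte 1, both lowest of their stage. Primary oocyte 4 of that plate, with 5453 counts, had 550 CPM of Eif5a2, the highest of its stage. Among somatic cells of plate 1, the highest of their stage were primary cell 4 with 7.89 CPM of Eif4e3, transitioning cell 1 with 276 CPM of Eif4e3, transitioning cell 5 with 33.2 CPM of Eif5a2, and transitioning cell 47 and secondary cell 2 with 502 and 372 CPM of Eif1ad.

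On plate 2, primordial oocyte 12 was the highest of its stage for 4 genes, with 740 CPM of Eif1ad, 668 CPM of Eif3a, 1026 CPM of Eif3e and 465.5 CPM of Eif5a2, and it had 83780 counts, the fewest of the oocytes of that plate. On plate 6, primary oocyte 18 had 252 CPM of Eif4e3 and primary oocyte 20 had 17.4 CPM of Eif5a2, the lowest of their stage.

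The 22 somatic cells of plate 3 entered no comparison, because no oocyte was on that plate. Of the factor genes listed there, 15 had more than 3 counts.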

How the results depend on the processing

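Over all alternatives, 27 values of the main counts moved by more than 1.5 times, and they are given here. With 1 cell left out, the direction of a call turned for 0 genes between oocytes and somatic cells, 11 times between somatic stages and 6 times between oocyte stages. The other alternatives, run on Eif1ad, Eif3a, Eif3e, Eif4e1b, Eif4e3 and Eif5a2, turned no call. No paired analysis was possible over the cells because the cell numbers only name cells. A test over the 5 plates that hold both types was not run, because no label says which plates hold different animals.

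The 1 gene higher in oocytes on every plate became 3 with TMM factors, 3 with median-of-ratios factors, 2 with totals without mitochondrial, ribosomal and clone genes, and 2 between primary cells first. It stayed 1 between primordial cells first, but was Eif5a2 in place of Eif4e3. The 2 genes lower on every plate became 1 with TMM factors, 0 with median-of-ratios factors, 1 with totals without those genes, 1 between primordial cells first, 0 at a log2 threshold of 1.5, and 1 to 2 with each cell left out in turn. The genes called were 23 in place of 15 on plate 1 between primordial cells, and 9 in place of 5 on plate 2 with TMM or median-of-ratios factors. At a threshold of 1.5 they were 3 in place of 7 on plate 4, 4 in place of 8 on plate 5, and 8 in place of 14 in transitioning over primordial somatic cells. At a minimum mean of 50 CPM, plate 5 had 1 in place of 3 calls in secondary over primary and 3 in place of 6 in primary over primordial somatic cells. The 14 calls between oocyte stages became 6 with mean CPM, TMM or median-of-ratios factors, 27 with totals over genes listed on every plate, 9 without mitochondrial, ribosomal and clone genes, and 4 at a threshold of 1.5. They were 2 with the same plate code only and 2 without the oocytes that stood apart, both chosen after the data were seen, and 2 to 17 with each cell left out in turn. The cause of these shifts was not tested.

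Depth limits single cells: the shallowest had 5150 counts, and a group sum of 0 allows up to 3 counts. Intervals cover counting error alone.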

Other observations

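Some genes outside the rule for printed values, picked after their values were seen, were also called between oocytes and somatic cells. Eif2b1, a regulatory subunit of eIF2B, had 543 CPM in oocytes (183.8 to 1000, median 555) and 181.04 CPM in somatic cells (0 to 1369, median 0) on plate 1, a log2 ratio of 1.59. On plate 6, where most somatic cells were secondary and most oocytes primary, Eif2a had 46 CPM in oocytes and 422 CPM in somatic cells, a ratio of −3.20, and Eif3i, an eIF3 subunit, had 184.9 and 754 CPM, a ratio of −2.03. Eif2s1, the eIF2 alpha subunit that the kinases phosphorylate, had 241.6 CPM in oocytes (0 to 496, median 208.8) and 620 CPM in somatic cells (9.61 to 1725, median 570) on plate 4, a ratio of −1.36. Eef1b2, an exchange factor for eEF1A, had 653 CPM in oocytes and 1942 CPM in somatic cells on plate 5, a ratio of −1.57 that was −2.80 without primordial oocyte 13, which held 65.4% of the oocyte counts. Eef1g, a scaffold of the same exchange complex, had 502 and 1235 CPM on plate 1, a ratio of −1.30, and −0.96 without primary oocyte 1, or −0.59 without the 3 oocytes of that plate that stood apart. Its value is uncertain because 47.6% of its stretches of 31 bases occur in other genes.

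On plate 3, which held transitioning somatic cells alone, Eif3a had 1328 CPM, Eif3e 648 CPM, Eif4g3 269 CPM, Eef2kmt 227.8 CPM and Eif2ak2 213.1 CPM. Eif4ebp3 was listed on every plate at no more than 4.52 CPM in any group of a cell type and stage.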
